A study of Aegilops tauschii x Triticum turgidum with 4 samples.

Results

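The wheat array used in this study carries 238 probes whose names begin with ncbi_gi and a record number, the form of name that NCBI's sequence databases once gave to deposited sequences. These probes were selected by name, and 141 of the 238 had both arrays of at least 1 group well above background and no outlier mark, against 30005 of 37826 plant probes on the whole array. The RNA came from crowns of triploid hybrids of Aegilops tauschii and tetraploid wheat (Triticum turgidum) that had been kept at 23 °C for 3 weeks. One group was of wild-type appearance (the line labelled wild type) and the other showed growth abortion (the line labelled SGA, severe growth abortion), with 2 arrays each. Both groups are triploid hybrids, and the titles of all 4 samples name shoot meristem as the tissue. The labels used here do not name the parental lines or say whether plants were pooled or came from separate cultures. The p-values therefore set a group difference only against the spread between these 4 arrays within their groups, which may be technical. A difference in genotype cannot be told apart from phenotype.

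Tetraploid wheat carries the A and B genomes and Ae. tauschii the D genome, and a cross of this kind gave rise to bread wheat. Some such crosses give hybrids with abnormal growth. The crown is the base of the shoot and holds the shoot apical meristem, the dividing tissue from which leaves and stem arise, and the study's title places the defect in cell division there. A record number is a running number, so records with neighbouring numbers were often deposited together, as members of a gene family or clones of a library often are. The files do not pair the names with genes or sequences, so no role is given to any probe, and the crown label could not be checked against marker genes.

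Fewer of these probes gave signal than of the array as a whole: 59.2% of them were tested, against 79.3% of all plant probes. This share was not even across the set, as given by record number below. Of the 141, 116 were well above background on all 4 arrays, 5 on 3 arrays and 20 on 2 arrays of the same group. Of the 97 others, 84 stayed below the background limit on all 4 arrays and 13 exceeded it on 1 or 2. By the mean of the brighter group, the dimmest of the 141 gave 23.6 and 22.5 in the wild-type group against 20.8 and 16.6 in SGA. The brightest of the 97 by the same measure gave 4.59 and 3.58 in the wild-type group against 4.76 and 118 in SGA, so 1 array stood apart there. No spot of the 238 probes was saturated or carried an outlier mark.

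Signals were higher across the whole array in SGA before scaling: the 75th percentile of plant probes was 1541 and 1395 on the wild-type arrays and 2671 and 2813 on the SGA arrays. The difference of the median tested probe was 0.16 on the log2 scale after subtraction of the 75th percentile, -0.11 with median scaling, 0.13 with quantile normalization, 0.57 in the authors' deposited values, 0.79 with total-signal scaling and 1.04 with spike-in scaling. Directions below are relative to the 75th percentile unless another scaling is named. In crown RNA, fewer cells of a type and less RNA per cell cannot be told apart.

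Among the 141 database-sequence probes, 61 were called as rises in SGA and 54 as falls, and 26 did not pass (limma, adjusted p under 0.05 with adjustment over the whole table). Rises made up 43.3% of the set and falls 38.3%, where over all 30005 tested probes rises made up 43.1% and falls 29.8%. The median difference was 0.099 on the log2 scale (0.001 within slide 1 and 0.106 within slide 2), and 0.157 over all tested probes. The background filter admits a probe through the group where it is high, which favours differences, so the 116 probes measured on all 4 arrays are given apart. Of these, 44 rose and 51 fell, which is 37.9% and 44.0%, where 41.2% and 31.8% of all probes measured on all 4 arrays rose and fell. Their median was -0.18, against 0.11 for all such probes. The sign of the set's median therefore differed between the 141 and the 116 probes, and without wild-type replicate 1 the median of the set was -0.020.

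**Figure D1:**
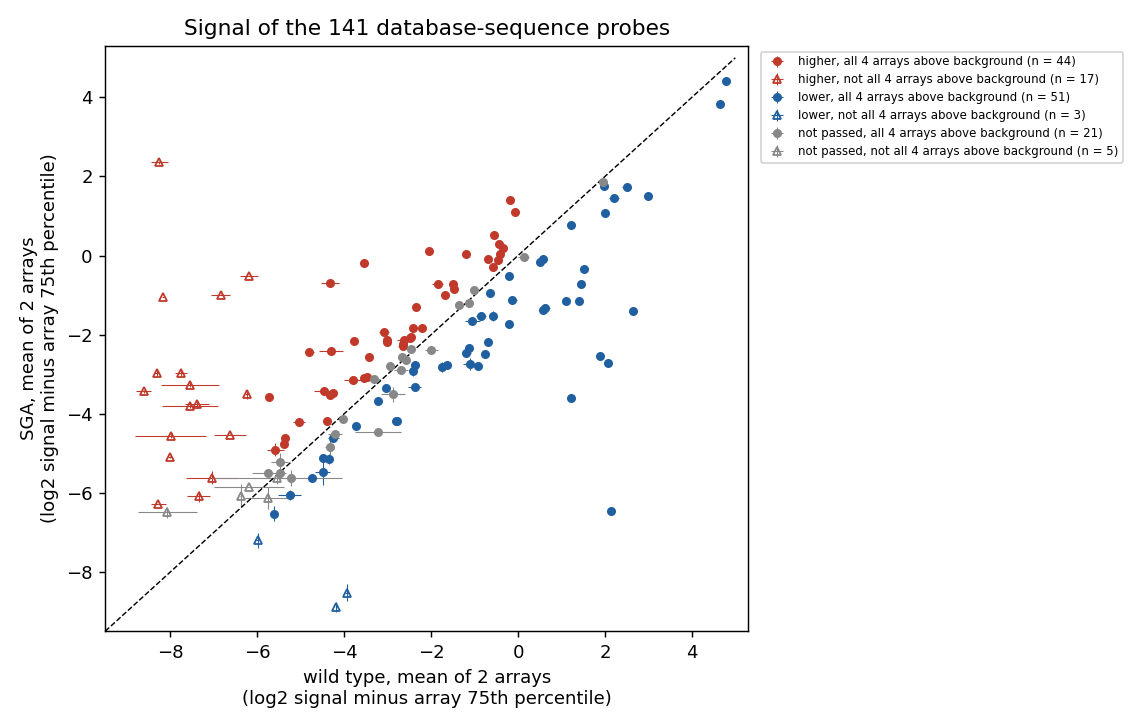
Each point is 1 of the 141 database-sequence probes, placed by its mean scaled log2 signal on the 2 wild-type arrays (x axis) and the 2 SGA arrays (y axis), with bars from the lower to the higher array; the dashed line marks equal values, filled circles were above background on all 4 arrays and open triangles were not. Of the filled points 44 lie above the line as rises and 51 below it as falls, and the open red triangles at the left are probes with little or no signal in wild type.

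Large differences were frequent in both directions. At least 2-fold differences were called for 32 rises and 27 falls, 22.7% and 19.1% of the set, where 13.0% and 12.2% of all tested probes were called at that size. At least 4-fold rises were called for 19 probes (13.5%, against 5.48% of all tested probes), and 4-fold falls for 10 (7.09%, against 5.77%). Falls were the more numerous among the 116 probes measured on all 4 arrays, where no probe entered through 1 group alone. This limit has a side of its own, since it leaves out 17 probes detected in SGA alone and 3 in wild type alone. Among the 116, 15 rises and 24 falls were at least 2-fold (12.9% and 20.7%, against 8.99% and 12.3% of all probes measured on all 4 arrays). At least 4-fold, 5 rises and 8 falls were called (4.31% and 6.90%, against 2.62% and 5.50%). The middle 80% of the differences of these probes lay between -1.80 and 1.09 in the set and between -1.23 and 0.95 over all. Between replicate arrays, the median absolute difference of the set was 0.13 log2 units in wild type and 0.076 in SGA. Over all tested probes it was 0.10 and 0.065. The 95th percentile of this difference was 1.07 in wild type and 0.40 in SGA for the set, against 0.58 and 0.33 over all tested probes. For the 116 probes it was 0.42 and 0.37. Of the 115 called probes of the set, 23 differed by less than 1.5-fold.

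**Figure D2:**
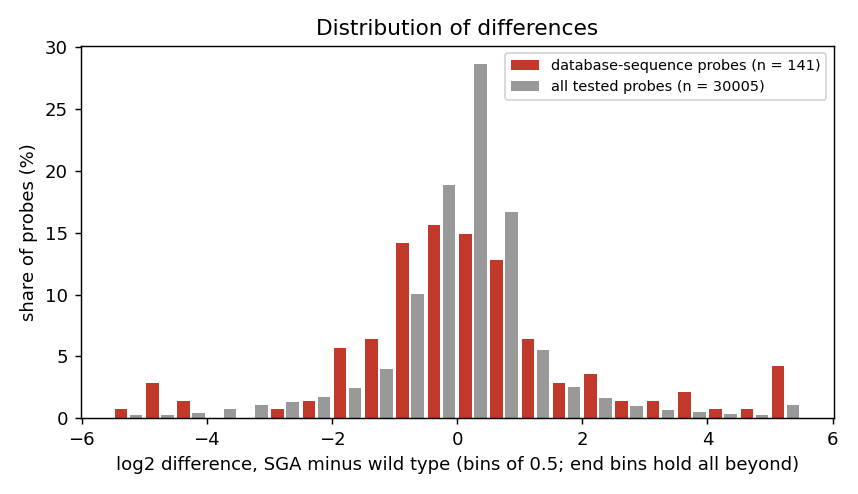
Share of probes (y axis, percent) in each bin of 0.5 of the log2 difference between SGA and wild type (x axis), for the 141 database-sequence probes (red) and all 30005 tested probes (grey). The red bars are lower in the centre and higher in both end bins, though not in every bin between. The left end bin holds 1 probe of the set, ncbi_gi_561915_132. The right end bin holds no probe of the set measured on all 4 arrays, where the largest difference was 3.635. The median is 0.099 for the set and 0.157 for all tested probes.

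The groups did not overlap for 129 of the 141 probes (91.5%), where 88.5% of all tested probes had no overlap. Each slide carried 1 array of each group. Within both slides 31 probes of the set were at least 2-fold higher in SGA (22.0%, against 11.8% of all tested probes). Another 25 were at least 2-fold lower within both (17.7%, against 11.5%). These counts take in probes that passed the background filter through 1 group alone, which favours differences. They were not made apart for probes measured on every array. Among those 116 probes, limma called 15 rises and 24 falls of at least 2-fold (12.9% and 20.7%, against 8.99% and 12.3% over all such probes). The sign was the same on both slides for 137 of the 141 probes (97.2%, against 93.7% of all tested probes).

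The direction of a part of the set depended on the scaling. Over 7 settings of scaling and background correction, 38 probes of the set were higher in SGA under each (27.0%, against 21.4% of all tested probes) and 23 were lower under each (16.3%, against 9.86%). Another 25 were called higher in 1 setting and lower in another (17.7%, against 23.9%). The filter admits a probe through the group where it is high, so the 116 probes measured on all 4 arrays are given too. Of these, 25 were higher under each setting (21.6%, against 21.1% of all such probes), close to the share over all. Lower under each setting were 21 (18.1%, against 9.93%). With spike-in scaling 92 probes of the set rose and 23 fell (65.2% and 16.3%, against 77.2% and 9.86% of all tested probes). With median scaling 46 rose and 66 fell (32.6% and 46.8%, against 27.3% and 40.6%). The 23 probes that were lower under spike-in scaling are as many as were lower under every setting.

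The 2 members named as rises differ in how they were measured. Probe ncbi_gi_21913312_2378 had signals of 5.76 and 3.98 on the wild-type arrays, not well above background, and of 13358 and 14764 on the SGA arrays. It was at least 419-fold higher in SGA, taking for each wild-type array the lowest signal well above background (21.4 and 15.0) as the limit, or the probe's own signal where that was higher. The adjusted p of 4.68e-05 from limma belongs to the difference fitted to the measured signals, not to this bound, as for each bound below. That fitted log2 difference was 10.61 and ranged from 6.88 to 11.50 over the other settings run, lowest with normexp, whose offset of 50 raises the low signals, so the bound holds for the 75th percentile scaling. This probe entered the test through SGA alone, so its call and the distance between its groups are no separate support. Its SGA signal was well above the 75th percentile of both SGA arrays. Probe ncbi_gi_32128824_1477 was measured on all 4 arrays and gave 66.5 and 80.1 in the wild-type group against 1653 and 1738 in SGA. It rose 12.4-fold (3.63 ± 0.16 SE on the log2 scale; n = 2 arrays a group; limma, adjusted p = 0.000278), by 3.84 on slide 1 and 3.43 on slide 2. Both SGA arrays were above both wild-type arrays, and over the other settings run the log2 difference ranged from 2.70 to 4.52.

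The largest falls were larger than the largest rises among probes measured on all 4 arrays. That ranking leaves out 17 probes detected in SGA alone and 3 detected in wild type alone, which were not measured on the arrays of the other group. Of the 17, the probe above had a lower bound of 419-fold. The next bounds were 47.6-fold, 41.2-fold and 39.6-fold, larger than every fall below but the first. The largest bound of the 3 was 8.1-fold. Probe ncbi_gi_561915_132 gave 6659 and 6180 in the wild-type group against 30.6 and 31.7 in SGA. It was 385-fold lower in SGA (-8.59 ± 0.049 SE on the log2 scale; n = 2 arrays a group; limma, adjusted p = 4.68e-05), with -8.56 on slide 1 and -8.62 on slide 2. Its SGA signals lay close to the lowest signals that counted as measured on those arrays, 21.6 and 22.6. Probe ncbi_gi_32128974_763 gave 3624 and 3167 in the wild-type group against 227 on each SGA array. It fell 27.9-fold (-4.80 ± 0.057 SE on the log2 scale; n = 2 arrays a group; limma, adjusted p = 4.68e-05), with no overlap of the groups. Over the other settings run the log2 differences of these 2 probes ranged from -8.85 to -6.90 and from -5.07 to -3.92.

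The next ranks fell off quickly among the probes measured on all 4 arrays. After the 385-fold and 27.9-fold falls came falls of 27.5-fold, 21.7-fold, 16.3-fold and 5.84-fold, and the tenth was 3.81-fold. The rises began at 12.4-fold and 10.2-fold, were 5.18-fold at the third rank and 2.25-fold at the tenth. The brightest probe measured on all 4 arrays that did not pass was ncbi_gi_32128531_1551, which gave 6317 and 5084 in the wild-type group against 9986 and 9962 in SGA. Its log2 difference was -0.087 on this scaling, with a 95% confidence interval of -0.32 to 0.15 (limma, adjusted p = 0.39). With spike-in scaling the same probe was 0.80 higher in SGA (limma, adjusted p = 0.000849), and with median scaling its difference was -0.35 (limma, adjusted p = 0.0449).

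Detection in 1 group alone was more frequent for SGA. Of the 238 probes, 17 were detected on each SGA array but on no wild-type array (7.14%, against 4.35% of all plant probes with no outlier mark), and 3 showed the reverse (1.26%, against 0.677%). Detection was judged before scaling, when SGA signals were higher across the array. Of the 17, 13 had a lower bound of at least 2-fold and 6 of at least 10-fold. Of the other 4, 1 had a bound under 1-fold, so no fold is given for it. The bounds of the 3 probes detected in wild type alone were 8.10-fold, 6.85-fold and 1.95-fold.

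Neighbouring record numbers group the probes without use of their signal. With a gap of at most 100 between successive numbers, 162 of the 238 probes fell into 8 runs of at least 3, and 76 lay in no run. The largest run, which holds ncbi_gi_32128531_1551, has 123 probes, of which 60 (48.8%) were tested and 47 measured on all 4 arrays. Of the 47, 18 rose and 21 fell (38.3% and 44.7%, against 41.2% and 31.8% of all probes measured on all 4 arrays). Their differences ranged from -4.80 to 3.63 with a median of -0.058, so this run had no common direction. The other 7 runs hold 39 probes, of which 32 were tested (82.1%, against 79.3% of all plant probes). Of the 76 probes in no run, 49 (64.5%) were tested and 42 measured on all 4 arrays. Of the 42, 18 rose and 20 fell (42.9% and 47.6%), with a median of -0.20. At least 4-fold falls were called for 5 of the 47 probes (10.6%) and for 0 of the 42, where the lowest difference was -1.93 (limma; 5.50% of all probes measured on all 4 arrays); the difference between these counts was not tested.

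**Figure D3:**
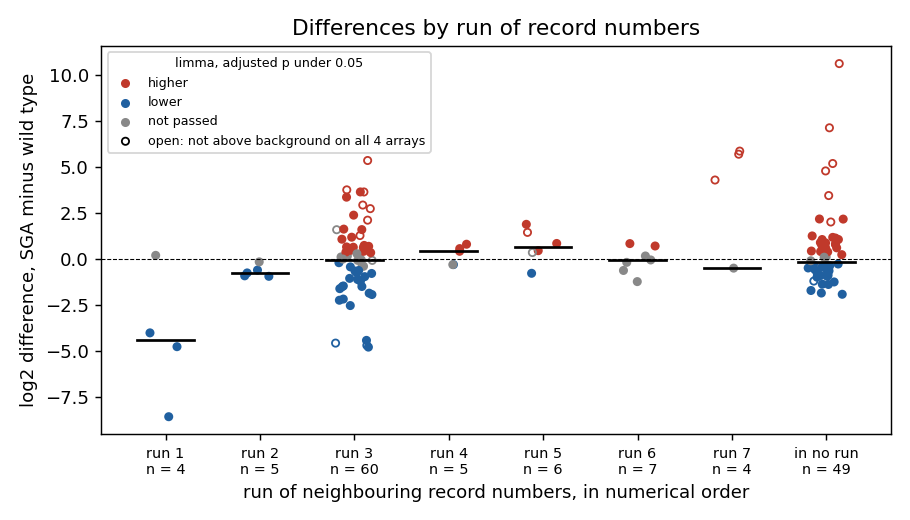
Each point is 1 tested database-sequence probe, with its log2 difference between SGA and wild type on the y axis, by run of neighbouring record numbers on the x axis (jittered); bars mark the medians of probes measured on all 4 arrays, colours the limma call, and open points are fitted differences of probes not above background on all 4 arrays. The 7 runs with at least 3 tested probes are shown in numerical order, then the 49 tested probes in no run. Run 1 reaches down to -8.59, the 3 rises of run 7 are open points, and the 60 probes of run 3 spread to both sides of 0.

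Among the smaller runs, the 2 runs of 4 probes each held large differences. In the run that holds record 561911, all 4 probes were measured on all 4 arrays and 3 fell, among them ncbi_gi_561915_132. The other falls in this run were from signals of 6254 and 6001 to 391 and 444 (27.5-fold; limma, adjusted p = 4.68e-05) and from 9943 and 8360 to 1088 and 1001 (16.3-fold; limma, adjusted p = 7.36e-05). These 3 probes gave bright and even signals in wild type and separate levels in SGA. The fourth, record 561911, gave 143 and 154 in the wild-type group against 292 and 341 in SGA and did not pass (log2 difference 0.19, limma, adjusted p = 0.223). Over the 7 settings the 3 falls were called lower each time. Whether probes of one run share sequence, so that they read the same transcript, was not tested.

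In the run that holds record 44894779, 3 of 4 probes were detected on each SGA array but on no wild-type array. The brightest of them gave 18.3 and 21.9 in the wild-type group against 1876 and 1976 in SGA and was at least 47.6-fold higher (fitted difference: limma, adjusted p = 9.74e-05). The second had signals of 11.6 and 14.1 against 1354 and 1408 and was at least 41.2-fold higher (fitted difference: limma, adjusted p = 1e-04). The third had 5.22 and 11.8 against 266 and 306 and was at least 8.51-fold higher (fitted difference: limma, adjusted p = 0.00311). These 3 probes entered the test through SGA alone, so their calls are no separate support. Record 44894779 itself was measured on all 4 arrays, gave 71.0 and 74.3 in the wild-type group against 80.1 and 113 in SGA, and did not pass (log2 difference -0.51, limma, adjusted p = 0.0669). These 2 runs were singled out after their values were seen.

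**Figure D4:**
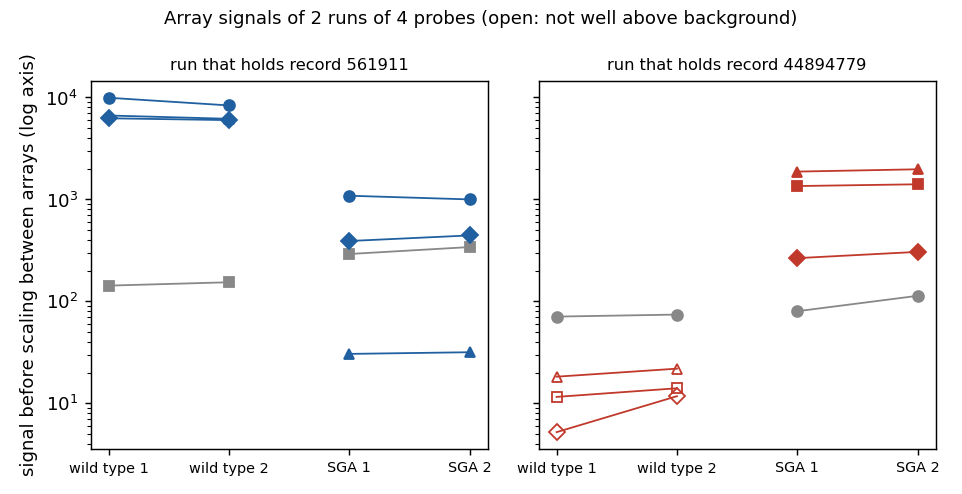
Signal before scaling between arrays (y axis, log axis) on each of the 4 arrays (x axis) for the 4 probes of the run that holds record 561911 (left) and the 4 probes of the run that holds record 44894779 (right); lines join arrays of a group, blue marks falls, red rises and grey probes that did not pass, and open symbols were not well above background. On the left 3 probes drop from 6001 to 9943 in wild type to 30.6 to 1088 in SGA, and on the right 3 probes go from 5.22 to 21.9 up to 266 to 1976.

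The other runs moved less. In the run that holds record 24461294, all 5 probes were measured on all 4 arrays, 4 fell and the fifth did not pass, with differences from -0.95 to -0.17. This is a direction relative to the 75th percentile: before scaling the brightest probe of this run gave 8079 and 8459 in the wild-type group against 8731 and 9411 in SGA. In the run that holds record 32400757, 3 of 5 probes rose and 1 fell, with differences from -0.32 to 0.79. In the run that holds record 40641608, 4 of 8 probes were measured on all 4 arrays. Of these, 3 rose and 1 fell, with differences from -0.79 to 1.87 and a median of 0.64. In the run that holds record 40644755, 7 of 10 were tested, 2 rose and 0 fell (limma). At an unadjusted p under 0.05, 3 were higher and 1 was lower. The last of the 8 runs had 1 tested probe of 3, which fell by 0.30 on the log2 scale.

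Direction also varied with signal within the set. Probes measured on all 4 arrays were split into 3 parts of equal size by their mean scaled signal over all 4 arrays, with limits taken from all 27069 such probes. A probe's signal depends on its sequence as well as on its transcript, so the parts do not rank transcripts. Of the 17 probes of the set in the brightest part, 14 fell and 2 rose, with a median of -0.76; over all probes of that part 44.9% fell, 30.2% rose and the median was -0.11. Of the 46 in the middle part, 22 fell and 19 rose (47.8% and 41.3%, against 27.1% and 49.2% of all probes there), with a median of -0.23 against 0.21. Of the 53 in the dimmest part, 15 fell and 23 rose (28.3% and 43.4%, against 23.3% and 44.1%), with a median of 0.15 against 0.24. Of the 17 in the brightest part, 5 were lower and 2 higher under each of the 7 settings (29.4% and 11.8%, against 13.8% and 13.4% of all probes there), and the other 10 were not called in the same direction under each of them.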

How the data were processed

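Single-colour arrays of crown RNA were analysed, 2 per group, with groups and replicate numbers taken from the sample titles. Per the labels' protocols, 0.5 µg of RNA was labelled with Cy3. Agilent Feature Extraction (version 9.5) was used, per the submitters' processing notes. Per the file headers, the deposited scanner files give a linear intensity per spot that was background-subtracted and detrended within its array. The authors' deposited values equal this intensity multiplied by a constant for each array (1.04, 1.17, 0.803 and 0.767), and the sources used here do not state that step.

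Log2 intensity minus the 75th percentile of each array was tested with limma (3.58.1, R 4.3.3, the data.table package, version 1.17.8; two-sided) over 30005 probes, with Benjamini-Hochberg adjustment over all of them and a threshold of 0.05. A probe entered the test if wild type, SGA or both had the well-above-background mark on each of their arrays and no array carried an outlier mark. Matplotlib (3.10.9) drew the figures. The test was checked on simulated data with independent errors and few changed probes. In these data most probes were called and same-numbered arrays correlated, so the check does not cover that setting. Normexp (offset 50) used median spot and background intensity, since the files have no mean column.

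Each slide carried 1 array of each group, so the replicate number marks the slide. Deviations from the group means of same-numbered arrays correlated (r = 0.20 across the 30005 probes, which are not independent replicates). Position 3 of either slide held wild type and position 4 held SGA, so position and group cannot be told apart.

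The set is the non-control probes whose name in the files' systematic name column begins with ncbi_gi; the probe name column holds numbers. The set, the lists of gene words and the rule for naming probes were chosen with earlier results of these data known. No file pairs the names with genes, so the gene lists were not used, and the rule then names 2 probes that rose (the largest rise measured on all 4 arrays and the largest lower bound), the 2 with the largest falls measured on all 4 arrays and the brightest that did not pass.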

Additional observations from a re-analysis of the deposited data

How the results depend on the processing

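Leaving out each array gave 49 to 61 rises, 43 to 62 falls, a median difference of the set of -0.020 to 0.13 and a distance of that median from all tested probes of -0.14 to -0.049 (-0.058 with all arrays). With spike-in scaling 92 probes rose and 23 fell (median 0.98), and with total-signal scaling 28 fell (median 0.74). Without the background filter 106 of 238 were called lower (median -0.51, distance -0.53). That run takes in the 97 probes that did not pass the filter, with signals of 2.99 to 118, so its count is not one of measured falls. The median was -0.16 with median scaling, -0.12 with quantile normalization (distance -0.25), 0.51 in the authors' values, -0.22 with normexp (distance -0.19) and -0.18 on all 4 arrays (distance -0.29). At least 2-fold, 32 rises and 27 falls were called. Median, spike-in, total-signal and the authors' scaling shift every probe alike, which sets these medians; for quantile normalization, normexp and the filters the cause was not tested. Probe ncbi_gi_32128531_1551 passed at -0.35 with median scaling and turned to 0.17 with quantile normalization, 0.32 in the authors' values, 0.80 with spike-in and 0.55 with total-signal scaling. With a replicate block (each number is a slide) rises numbered 62 and falls 56; 112 of 115 calls were kept with their direction, 3 were lost and 6 gained. The 4 named probes that rose or fell kept direction and call in each setting that tested them. The smallest two-sided p of an exact permutation test over 2 against 2 arrays is 0.333. Signal over background limits the rest: 97 of the 238 probes have no direction here.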
